A study of Homo sapiens with 9 samples.

Results

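Immediate early genes are switched on within minutes of a growth factor, a calcium signal or stress, from transcription factors that already lie in the cell, and their transcripts are short-lived. FOS and FOSB proteins pair with the JUN proteins through leucine zippers to form the transcription factor AP-1, EGR proteins are zinc finger factors that bind GC-rich sites, and IER2 and IER3 are small proteins induced in the same wave. In neurons this wave follows electrical activity and receptor stimulation, muscarinic acetylcholine receptors included, and is widely read as a trace of recent signalling. The genes described here were chosen by name as a family of 10: FOS, FOSB, JUN, JUNB, JUND, EGR1, EGR2, EGR3, IER2 and IER3. Every probe set that the platform annotation gives to 1 of these symbols alone was used, which came to 15 of 22215 probe sets tested and covered 9 of the 10 genes. EGR2 was paired with no probe set by that annotation and was not analysed here. The rule itself uses symbols and no measured value.

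RNA was measured on 9 single-channel expression arrays, 3 for each of 3 groups of IMR-32 cells, a human neuroblastoma line known for MYCN amplification. The groups are those of the sample labels. One group was labelled wild type (WT), one stably expressed the 69-kDa form of choline acetyltransferase (69CHAT) and one the 82-kDa form (82CHAT). Choline acetyltransferase makes acetylcholine, and the larger form can enter the nucleus. Which promoter drove each form, when cells were harvested, whether they were stimulated or starved before and whether a line was 1 clone is not stated in the sources used. There was 1 line per form, so the effect of a form and the history of its line cannot be told apart. Per the series' text the 3 arrays of a group came from biological replicates. Their small number limits the precision of every value.

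Arrays with the wild type label went against it. Across all probe sets the correlation of log2 values was 0.913 to 0.933 between a WT array and a line array, and 0.976 to 0.994 between arrays of different lines. Levels are given as deposited, as RMA intensities on a linear scale. MYCN read 62.5 to 120 on the WT arrays and 4181 to 6118 on the line arrays. Of 14 measured sympathoadrenal neuroblastoma markers 10 were higher and 0 lower in each line, with a summed level of 2181 to 2647 on the WT arrays and of 14358 to 25271 on the line arrays. Of 10 epithelial markers 6 were lower and 0 higher in each line (summed level 5817 to 6503 on the WT arrays, 593 to 704 on the line arrays), and 4 of them were near background on all line arrays. Among 10 mesenchymal markers 2 were higher and 2 lower in 69CHAT, 2 and 3 in 82CHAT, with a summed level of 12430 to 13731 in WT and 5221 to 8535 in the lines. The 5 measured blood cell markers summed to 461 to 556 in WT and 504 to 735 in the lines. Differences from WT are therefore differences from these arrays. The part of these markers in the results below was not tested, and only the differences between the lines use no WT level. Near background means an intensity under 55.9, which is the smallest of the 9 arrays' lower quartiles.

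The results turn on the JUN genes, so the 250 bases before the transcription start of JUN, JUNB and JUND are shown, together with those of EGR1, whose promoter carries the classic serum response elements. They come from RefSeq (GRCh38.p14), 5′ to 3′ on the gene's own strand. Capitals mark a CRE (TGACGTCA, the binding site of CREB and ATF factors), a variant of it known from the JUN promoter (TGACATCA, bound by JUN and ATF2), a CArG box (bound by serum response factor) or a CCAAT box (CCAAT). The promoter of JUN lies on the minus strand at chr1:58784048-58784297, that of JUNB on the plus strand at chr19:12791236-12791485, that of JUND on the minus strand at chr19:18281623-18281872 and that of EGR1 on the plus strand at chr5:138465229-138465478.
JUN: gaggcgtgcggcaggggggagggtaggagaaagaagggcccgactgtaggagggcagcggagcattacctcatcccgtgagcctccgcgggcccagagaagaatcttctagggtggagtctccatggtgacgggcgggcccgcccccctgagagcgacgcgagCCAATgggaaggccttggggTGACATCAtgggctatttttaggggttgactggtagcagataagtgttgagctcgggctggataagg
JUNB: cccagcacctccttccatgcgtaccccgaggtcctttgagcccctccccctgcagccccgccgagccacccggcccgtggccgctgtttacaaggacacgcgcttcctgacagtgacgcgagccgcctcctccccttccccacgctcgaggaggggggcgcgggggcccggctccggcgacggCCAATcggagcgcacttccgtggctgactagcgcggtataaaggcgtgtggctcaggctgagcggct
JUND: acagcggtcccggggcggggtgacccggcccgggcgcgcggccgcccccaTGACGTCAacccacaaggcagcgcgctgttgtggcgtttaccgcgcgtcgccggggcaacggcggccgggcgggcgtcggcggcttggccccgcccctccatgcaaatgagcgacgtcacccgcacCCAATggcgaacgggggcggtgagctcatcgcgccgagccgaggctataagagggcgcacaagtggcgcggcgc
EGR1: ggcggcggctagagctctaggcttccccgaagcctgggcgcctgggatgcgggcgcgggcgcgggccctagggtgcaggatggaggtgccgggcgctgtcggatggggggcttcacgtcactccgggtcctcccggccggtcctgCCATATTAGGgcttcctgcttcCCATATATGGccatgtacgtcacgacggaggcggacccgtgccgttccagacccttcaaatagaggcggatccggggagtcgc

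The 3 JUN promoters differed in these letters. JUN held the element TGACATCA from 67 to 60 bases before the start, which 2.38% of 35116 promoter windows of the same length hold on either strand. JUND held the CRE TGACGTCA from 200 to 193 bases before the start (1.65% of windows), and JUNB held neither. A CCAAT box stood in JUN, JUNB and JUND, from 87, 67 and 74 bases before the start (32.0% of windows). EGR1 held 2 CArG boxes, from 105 and 83 bases before the start, and the JUN genes held none in this window (1.16% of windows hold one). A CArG box also stood in 1 of the 3 EGR2 windows, from 71 bases before the start, and none in those of FOS, FOSB and IER2. A TATA box (TATAAA) stood in FOS, FOSB and JUNB, from 33, 30 and 31 bases before the start (10.7% of windows). The AP-1 element TGAGTCA (4.20% of windows) and the EGR elements GCGTGGGCG (0.7205%) and GCGGGGGCG (4.72%) were in none of the windows searched, those of FOS, FOSB, JUN, JUNB, JUND, EGR1, EGR2 and IER2. No window of EGR3 or IER3 was searched. G and C made up 62.0% of the JUN window, 70.8% of JUNB and 74.8% of JUND, where the median over all windows was 58.0%. All motifs were searched on both strands, and a match is a description of the letters and not a bound site.

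The first comparison asked how the lines differ from the arrays labelled wild type in these genes. JUN and IER3 were lower in both lines, JUNB and JUND were higher in both, and FOS, FOSB, EGR1, EGR3 and IER2 were not called in either. Against WT 4 of the 15 probe sets passed as higher in 69CHAT and 4 as lower (limma, adjusted p under 0.05), beside 26.2% of all probe sets called (10.9% higher, 15.3% lower). In 82CHAT the members' counts were again 4 and 4, beside 26.8% of all probe sets (11.0% higher, 15.7% lower). Several member probe sets measure the same gene. Counted by gene with the brightest probe set, 2 genes were higher and 2 lower of 9 in each comparison. Of all genes 29.4% were called in 69CHAT (11.7% higher, 17.7% lower) and 30.3% in 82CHAT (11.8% higher, 18.5% lower). Members that were called thus moved both ways, and the median log2 difference over all 15 probe sets (0.04 in 69CHAT and -0.05 in 82CHAT) lay close to that of all probe sets (0.06 in both). Without regard to sign the median was 0.63 and 0.65 for the member probe sets, beside 0.20 and 0.22 over all probe sets. JUN and JUND count several times in the members' medians. In each comparison 8 of the 15 probe sets had groups that did not overlap, beside 43.7% of all probe sets in 69CHAT and 42.3% in 82CHAT. Both comparisons use the same 3 WT arrays. In RNA from bulk cultures, fewer cells that make a transcript and less of it per cell cannot be told apart.

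**Figure D1:**
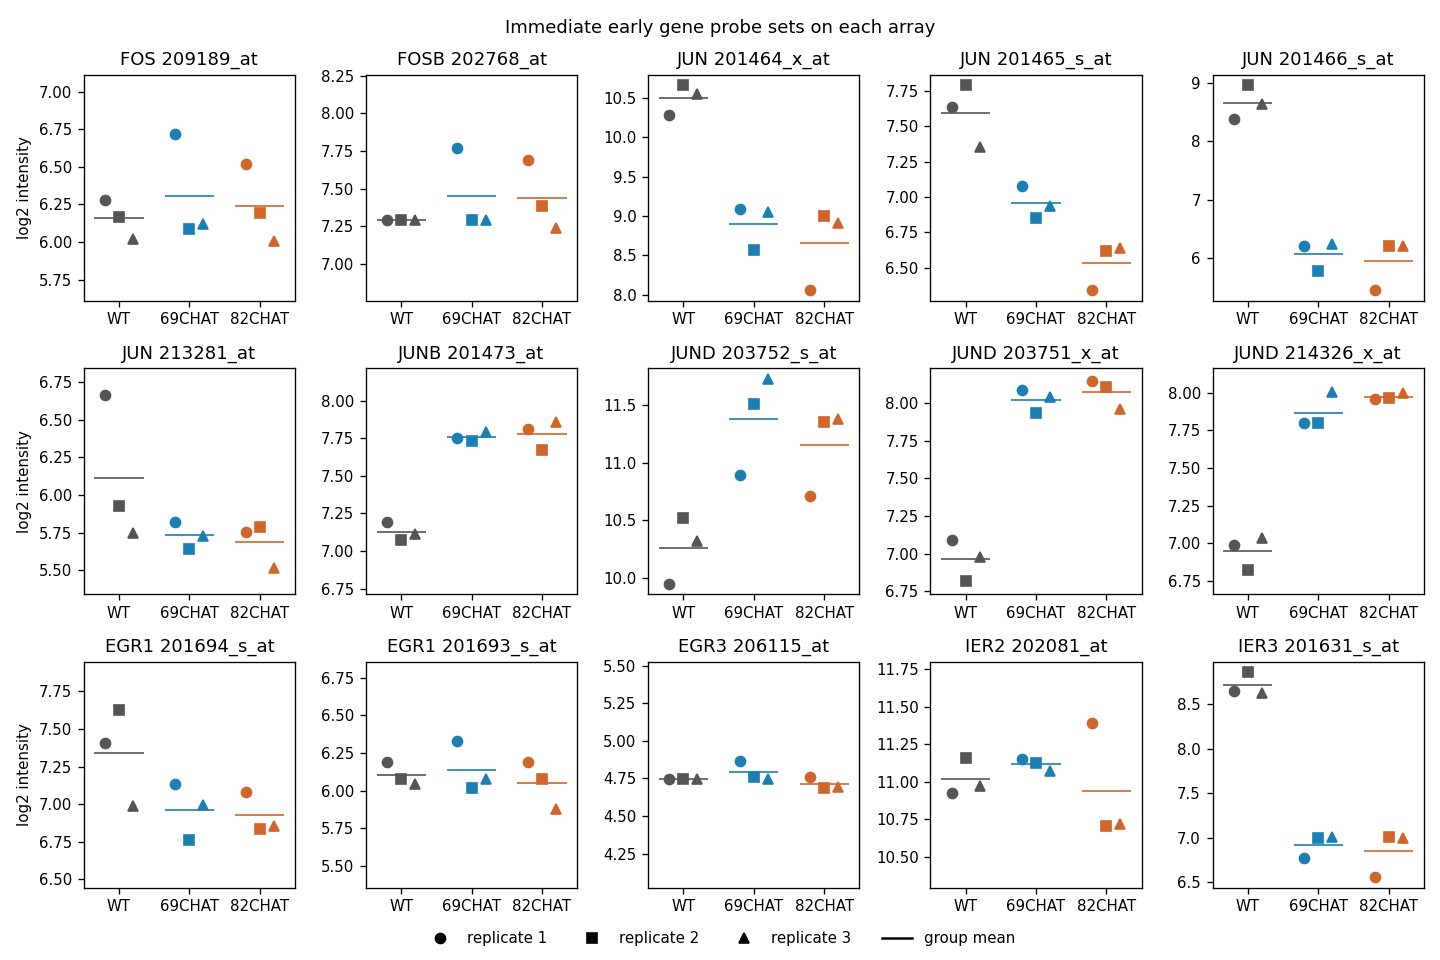
Log2 intensity (y axis, own range in each panel) of the 15 probe sets on the 9 arrays, by group on the x axis, with a symbol for each replicate number and a line at the group mean. JUN (3 of its 4 probe sets) and IER3 sit lower on every line array than on every WT array, JUNB and JUND sit higher, and the other panels overlap.

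JUN, the founding AP-1 subunit and the main target of the JNK kinases, was 3.02-fold lower in 69CHAT and 3.59-fold lower in 82CHAT by its brightest probe set (201464_x_at). That probe set read 1249, 1621 and 1494 on the WT arrays (replicates 1, 2 and 3), 544, 381 and 530 on the 69CHAT arrays and 267, 511 and 481 on the 82CHAT arrays. Every line array was below every WT array, and the lowest of all was replicate 1 of 82CHAT. The mean log2 level was 10.50 ± 0.19 (SD, n = 3) in WT, 8.90 ± 0.29 in 69CHAT and 8.66 ± 0.52 in 82CHAT. The log2 difference from WT was -1.59 (SE 0.25, limma adjusted p = 0.0017) in 69CHAT and -1.84 (SE 0.25, adjusted p = 0.000755) in 82CHAT.

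The probe sets of JUN gave one direction and unequal sizes. Probe set 201466_s_at read 332.5, 499 and 398 in WT, 73.7, 55.1 and 75.6 in 69CHAT and 43.7, 74.0 and 73.6 in 82CHAT. Its decrease was about 5.99-fold and about 6.52-fold (limma adjusted p = 7.6e-05 and 5.8e-05), and 1 of the 3 arrays of each line was near background. Probe set 201465_s_at read 199, 222 and 164 in WT, 135, 115 and 122.5 in 69CHAT and 81.0, 98.4 and 99.8 in 82CHAT. Here the arrays of the 3 groups formed separate ranges, with decreases of 1.56-fold and 2.09-fold (limma adjusted p = 0.0071 and 0.00045). The dimmest, 213281_at, read 102, 61.0 and 53.7 in WT and 45.8 to 56.5 on the line arrays. Its groups overlapped and it was not called (log2 difference -0.38 and -0.43, limma adjusted p = 0.24 and 0.19). The decrease of the other 3 probe sets was called under every alternative in which they were fitted, with differences for 201464_x_at of -1.86 to -1.43 in 69CHAT and -2.01 to -1.54 in 82CHAT.

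JUNB, an AP-1 subunit that often restrains the activity of JUN, was 1.55-fold higher in 69CHAT and 1.57-fold higher in 82CHAT. Its probe set read 146, 135 and 139 on the WT arrays, 215, 212 and 222 on the 69CHAT arrays and 225, 204 and 231 on the 82CHAT arrays. Every line array was above every WT array, and within each group the arrays lay close together. The mean log2 level was 7.13 ± 0.06 (SD, n = 3) in WT, 7.76 ± 0.03 in 69CHAT and 7.78 ± 0.10 in 82CHAT, so that the differences of 0.63 and 0.65 (SE 0.08 each) were larger than the spread between replicates (limma adjusted p = 0.00040 and 0.000325).

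JUND, the JUN protein that most resting cells keep at a steady level, was higher in both lines by all 3 probe sets. The brightest, 203752_s_at, read 989.8, 1467 and 1278 in WT, 1908, 2913 and 3393 in 69CHAT and 1677, 2622 and 2671 in 82CHAT. Replicate 1 was the lowest array in every group, yet each replicate 1 line array still exceeded all 3 WT arrays. The increase was 2.17-fold in 69CHAT (log2 difference 1.12, SE 0.26, limma adjusted p = 0.012) and 1.85-fold in 82CHAT (0.89, SE 0.26, adjusted p = 0.035). The second of these calls did not hold when 69CHAT replicate 2 (limma adjusted p = 0.052), 82CHAT replicate 2 (0.11) or 3 (0.10) or WT replicate 1 (0.12) or 3 (0.080) was left out, nor with median centring (0.060). It held in the other 13 of 19 alternatives, with a limma adjusted p of 0.00052 with the replicate block (SE 0.098), 0.0031 with quantile normalization and 0.00048 in replicates 2 and 3 alone.

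The other JUND probe sets were tighter and kept their call under all 18 alternatives in which they were fitted. Probe set 203751_x_at read 137, 113 and 126 in WT, 272, 245 and 263 in 69CHAT and 283, 276 and 249 in 82CHAT, 2.08-fold and 2.15-fold higher (limma adjusted p = 6.9e-05 and 5.3e-05). Probe set 214326_x_at read 127, 113 and 131 in WT, 222.5, 222.5 and 257 in 69CHAT and 249, 250.3 and 255 in 82CHAT, 1.89-fold and 2.04-fold higher (adjusted p = 0.00010 and 5.5e-05). The suffix _x_at, which JUN 201464_x_at also carries, marks probes that may match other transcripts as well. The only JUN probe set with neither this suffix nor _s_at was 213281_at, which was not called. Within the same replicate number the 3 JUND probe sets differed from WT by 0.81 to 1.41 on the log2 scale in 69CHAT and by 0.76 to 1.29 in 82CHAT.

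**Figure D2:**
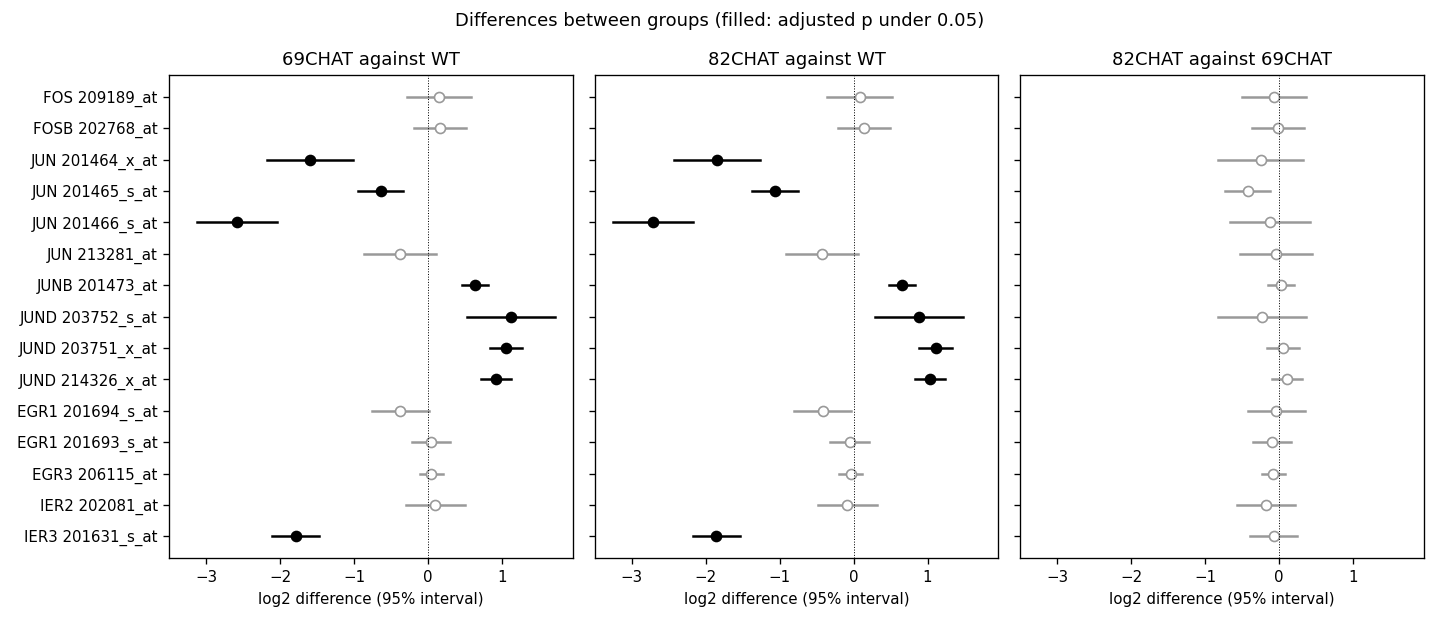
Log2 difference (x axis) of each probe set (y axis) in the 3 comparisons, with its 95% interval, filled black where the limma adjusted p was under 0.05 and open grey otherwise. The JUN and IER3 probe sets lie to the left and JUNB and JUND to the right in both comparisons with WT, and 0 of 15 are filled between the lines.

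FOS, the partner of JUN in the classic AP-1 dimer, was dim and did not differ between groups beyond its spread. It read 77.8, 71.9 and 65.0 on the WT arrays, 105, 68.0 and 69.6 on the 69CHAT arrays and 91.7, 73.2 and 64.2 on the 82CHAT arrays. The highest array of each group was replicate 1, and the groups overlapped. The log2 difference from WT was 0.15 in 69CHAT (95% interval -0.28 to 0.59, limma adjusted p = 0.61) and 0.08 in 82CHAT (-0.35 to 0.52, adjusted p = 0.78). FOSB, a second FOS protein, read 157, 157 and 157 in WT, 219, 157 and 157 in 69CHAT and 207, 167 and 151 in 82CHAT. Replicate 1 of each line was the highest, 82CHAT replicate 2 lay slightly above WT and 82CHAT replicate 3 below it (log2 difference 0.16 and 0.15, limma adjusted p = 0.50 and 0.52). Exactly equal values occurred on 4 arrays for FOSB, and 34.2% of all probe sets in the table had equal values on at least 2 arrays, so a small SD in such a group understates its error.

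EGR1, the zinc finger factor most often used as a marker of neuronal activity, was not called. Its brighter probe set (201694_s_at) read 169, 198 and 127 in WT, 140, 108 and 127 in 69CHAT and 136, 114 and 116 in 82CHAT. WT replicates 1 and 2 were above all line arrays, while WT replicate 3 lay among them. The log2 difference was -0.38 in 69CHAT (SE 0.17, limma adjusted p = 0.15) and -0.42 in 82CHAT (SE 0.17, adjusted p = 0.11), and without WT replicate 3 both passed (-0.55, adjusted p = 0.029, and -0.59, adjusted p = 0.022). The dimmer probe set (201693_s_at) read 66.0 to 72.9 in WT, 64.6 to 80.3 in 69CHAT and 58.9 to 73.0 in 82CHAT, with differences of 0.04 and -0.05. EGR3, a relative that EGR1-type signals also induce, read 25.7 to 29.1 on all 9 arrays. That is near background throughout, so no difference in EGR3 was detectable on these arrays.

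IER3, a small protein that affects survival and is a target of NF-kappaB and of p53, was 3.45-fold lower in 69CHAT and 3.62-fold lower in 82CHAT. It read 402, 463 and 395 on the WT arrays, 109, 127 and 129 on the 69CHAT arrays and 93.9, 129 and 127.5 on the 82CHAT arrays. The groups were far apart, and replicate 1 was the lowest array in both lines. The log2 difference was -1.79 (SE 0.14, limma adjusted p = 2.9e-05) in 69CHAT and -1.86 (SE 0.14, adjusted p = 2.3e-05) in 82CHAT. These were the smallest adjusted p-values among the members, and both calls held under all 19 alternatives fitted.

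IER2, a nuclear protein of the same wave, was among the brighter members and was not called. It read 1944, 2284 and 2011 in WT, 2271, 2232 and 2153 in 69CHAT and 2679, 1668 and 1683 in 82CHAT. Replicate 1 of 82CHAT was the highest of all arrays, and replicates 2 and 3 of that line were the lowest. The difference of that line from WT was -0.08 over all arrays (limma adjusted p = 0.75) and -0.35 in replicates 2 and 3 alone (adjusted p = 0.012), with -0.31 (adjusted p = 0.036) when only replicate 1 of 82CHAT was left out. 69CHAT differed from WT by 0.10 (limma adjusted p = 0.72).

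**Figure D3:**
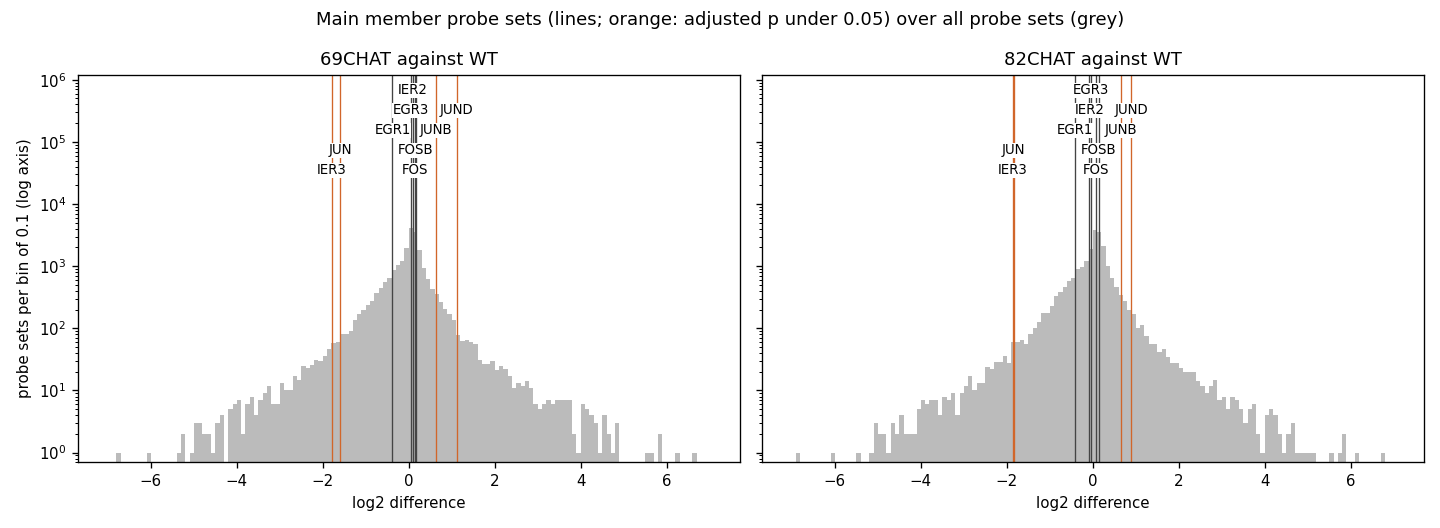
Number of probe sets (y axis, log scale) by log2 difference (x axis, bins of 0.1) for all 22215 probe sets in each line against WT, with a line at the brightest probe set of each member, orange where it was called. IER3 and JUN lie in the left shoulder, JUNB and JUND in the right one, and the other 5 genes near the centre.

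Set directly against each other, the lines showed no called difference in these genes. This comparison asked whether the lines differ, and it takes no level from a WT array. With 1 line per form it cannot tell a form from its line. None of the 15 probe sets was called by limma, beside 0.0% of all probe sets (1 and 733 at an unadjusted p under 0.05, which is 3.3% of all). The 1 member was JUN probe set 201465_s_at, the only member whose line groups did not overlap (6.84% of all probe sets did not), with a log2 difference of -0.42 (95% interval -0.73 to -0.12, adjusted p = 0.9999). The brighter JUN probe set differed by -0.25 (interval -0.83 to 0.33), and it turned to 0.14 in replicates 2 and 3 alone. JUNB differed by 0.02 (interval -0.15 to 0.20), JUND 203752_s_at by -0.23 (-0.82 to 0.37), JUND 203751_x_at by 0.05 (-0.17 to 0.27) and IER3 by -0.07 (-0.39 to 0.25). The intervals of FOS (-0.50 to 0.37), FOSB (-0.37 to 0.34), EGR1 201694_s_at (-0.42 to 0.35) and IER2 (-0.57 to 0.22) also held 0. A missed threshold does not show that the lines are alike. With only the 6 arrays of the lines in the fit 0 members and 0 probe sets were called. With array quality weights 1704 probe sets passed, IER2 among them (-0.38, adjusted p = 0.011). Those weights were 0.19 for replicate 1 of 69CHAT and 0.16 for that of 82CHAT, against 5.66 and 4.24 for replicate 2. In replicates 2 and 3 alone IER2 did not pass between the lines (-0.39, limma adjusted p = 0.079).

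Levels on replicate 1 differed from those on replicates 2 and 3 in the same direction in all 3 groups for 6 member probe sets that were higher and 2 that were lower, of 15. The same held upward for 34.3% and downward for 22.3% of the whole table, so the members' counts lie near the background and show nothing particular to them. FOS was higher on replicate 1 than on the mean of replicates 2 and 3 in all 3 groups, by 0.61 on the log2 scale in 69CHAT, 0.42 in 82CHAT and 0.19 in WT. FOSB (0.48, 0.38 and 0.0015 in the same order) and EGR1 201694_s_at (0.25, 0.24 and 0.10) were also higher in all 3. JUND 203752_s_at fell short on replicate 1 by 0.72, 0.66 and 0.47 in the same order, while its other probe sets differed from replicates 2 and 3 by at most 0.19. IER3 was lower on replicate 1 as well, with differences of -0.23, -0.45 and -0.09. JUN 201464_x_at had no common direction, with 0.28 in 69CHAT, -0.89 in 82CHAT and -0.32 in WT. No member was 0.5 or more away in the same direction in all 3 groups, beside 0.378% of all probe sets that were higher and 1.63% that were lower by that much. The sources do not say what arrays with 1 number share. With the replicate number as a block, the same 8 member probe sets were called against WT in each line.

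**Figure D4:**
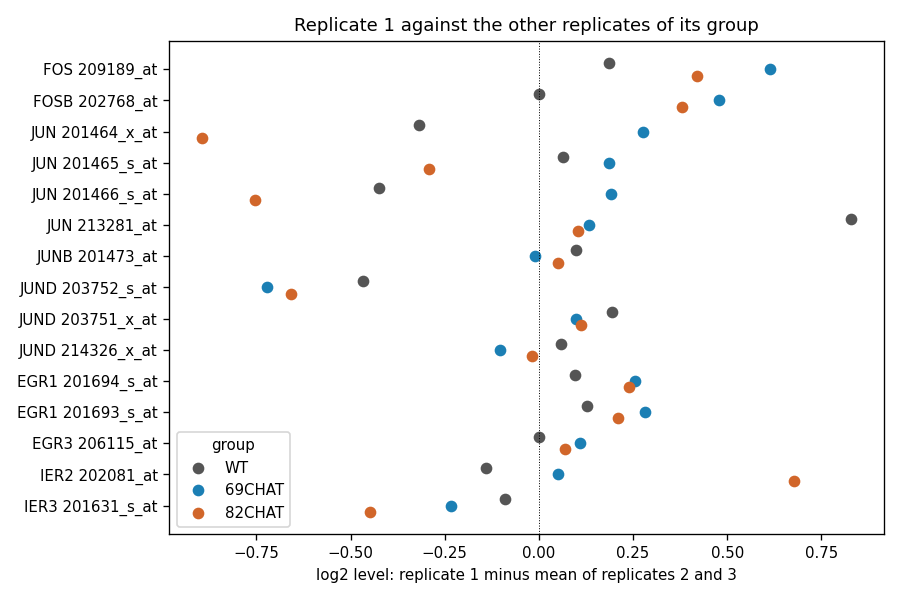
Log2 level on replicate 1 minus the mean of replicates 2 and 3 (x axis) for each member probe set (y axis), with a point per group. FOS, FOSB, both EGR1 probe sets, JUN 213281_at and JUND 203751_x_at lie to the right of 0 in all 3 groups, FOSB in WT barely so. EGR3 lies to the right in both lines and at 0 in WT. IER3 and JUND 203752_s_at lie to the left. IER2, JUNB, JUND 214326_x_at and the other JUN probe sets scatter on both sides.

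Other genes of the same first wave were measured at 47 of 50, 1 probe set a gene. Of these 16 were lower and 4 higher than WT in each line, 42.6% in both. Of all genes 29.4% were called in 69CHAT (17.7% lower, 11.7% higher) and 30.3% in 82CHAT (18.5% lower, 11.8% higher). The median log2 difference of the early genes was -0.23 in 69CHAT and -0.29 in 82CHAT, beside 0.05 over all genes. HES1, a repressor of neuronal differentiation, read 185 to 303 in WT and 31.3 to 37.1 in the lines, near background there, so its decrease was about 7.34-fold and about 7.33-fold (limma adjusted p = 7.2e-06 and 7.1e-06). MYC, the relative of MYCN, was about 5.50-fold and about 5.62-fold lower, again with lines near background (32.4 to 35.9). SGK1, a serum and glucocorticoid induced kinase, was about 2.07-fold and about 2.23-fold lower (WT 104 to 108, lines 46.3 to 53.6, near background as well). RGS2, a brake on Gq signalling, was the exception among the named genes of this list, with 473 to 628 in 69CHAT, 613 to 824 in 82CHAT and 219 to 229 in WT (2.50-fold and 3.18-fold higher, adjusted p = 0.00014 and 3.8e-05).

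Kinases that carry signals to these genes were lower at 8 and higher at 5 of 24 measured in 69CHAT, and at 9 and 5 in 82CHAT (9 called in all without 82CHAT replicate 3). With all arrays 54.2% and 58.3% of the kinases were called, beside 29.4% and 30.3% of all genes. RPS6KA2, an RSK kinase, was 4.67-fold and 3.77-fold higher, while RPS6KA1, another RSK kinase, was 2.002-fold and 1.74-fold lower. Among the JNK kinases, which phosphorylate JUN, MAPK10, the neuronal form, was 1.94-fold and 2.09-fold higher and MAPK9 was 2.06-fold and 2.14-fold lower. The largest limma adjusted p of these 4 genes was 0.00018. MAPK8, the remaining JNK kinase, was 1.39-fold and 1.35-fold higher (limma adjusted p = 0.015 and 0.022). Its own calls were not followed through the alternatives. Factors that bind immediate early promoters were called at 4 of 19 in 69CHAT (2 higher, 2 lower) and 3 of 19 in 82CHAT (all lower). These shares, 21.1% and 15.8%, were below those of all genes. Without 69CHAT replicate 2 or WT replicate 1 the first count was 2, and without 69CHAT replicate 1 or 82CHAT replicate 1 the second was 6. MEF2C, a calcium-responsive factor, was about 3.76-fold and about 3.50-fold lower, and CREM, a CREB relative, was 1.47-fold and 1.46-fold lower (limma adjusted p = 0.012 and 0.013). Without WT replicate 2 the CREM value in 82CHAT no longer passed (adjusted p = 0.052). CREB1, a mediator of cyclic AMP and calcium signals, was 1.53-fold higher in 69CHAT (adjusted p = 0.015), a call that ended without 69CHAT replicate 2 (0.065) or 3 (0.057) or WT replicate 1 (0.058), and it did not pass in 82CHAT (adjusted p = 0.14). MEF2A was 1.42-fold lower in 82CHAT (adjusted p = 0.038), which 6 of the 9 fits without 1 array did not keep (adjusted p from 0.056 to 0.11), all but those without 69CHAT replicate 1, 82CHAT replicate 2 or WT replicate 2. The MEF2A call also ended with quantile normalization (limma adjusted p = 0.061) and with only the 6 arrays compared (0.070), and held in 12 of 20 alternatives.

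Other leucine zipper factors that join or compete with AP-1 were called at 7 of 20 in 69CHAT (5 higher) and 8 of 20 in 82CHAT (4 higher). The first count was 4 without 69CHAT replicate 3 and 3 without WT replicate 1 or 3, and the second was 5 without 82CHAT replicate 2 or 3 or WT replicate 1 or 3. ATF2, a partner of JUN, was 1.45-fold and 1.58-fold higher (limma adjusted p = 0.011 and 0.0036). NFE2L1, a regulator of proteasome genes, was 1.63-fold and 1.31-fold higher (adjusted p = 0.00034 and 0.0083). MAF, a large relative of FOS and JUN, was about 1.64-fold and about 1.59-fold lower, with line arrays near background. BATF3, a factor of dendritic cells, was 1.44-fold lower in 82CHAT (adjusted p = 0.0038) and 1.24-fold lower in 69CHAT (adjusted p = 0.043). The 69CHAT call of BATF3 held in 10 of 20 alternatives and ended without any of the 3 arrays of 69CHAT, without 82CHAT replicate 2 and without WT replicate 1 or 3 (adjusted p from 0.069 to 0.14). It also ended without dim probe sets, with only the 6 arrays compared, with trended, robust eBayes and in replicates 2 and 3 alone (limma adjusted p from 0.055 to 0.090). Of the 6 corepressors and relatives of EGR factors only NAB2, a corepressor that EGR1 induces, was called, 1.80-fold and 1.68-fold higher (limma adjusted p = 0.0010 and 0.0021). That is 16.7% of this list in each line, below the share of all genes. In 82CHAT the count was 2 without 69CHAT replicate 1. Of 13 proteins that act on AU-rich or short-lived transcripts 1 was higher and 3 lower in each line. These 30.8% lay near the share of all genes. ELAVL1, which stabilises such transcripts, was 3.22-fold and 3.45-fold lower, PARN, a deadenylase, 1.64-fold and 1.57-fold lower, and TIA1, a translational repressor, 1.59-fold and 1.57-fold higher (largest limma adjusted p of these 0.0031). TIAL1, its close relative, was 1.39-fold lower in 82CHAT (adjusted p = 0.0023) and 1.24-fold lower in 69CHAT (adjusted p = 0.022), a call that ended without 69CHAT replicate 1 (0.052) or 2 (0.089) or WT replicate 2 (0.083) or 3 (0.056), with quantile normalization (0.085) and with trended, robust eBayes (0.076).

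Genes known as targets of AP-1 or EGR factors were higher at 5 and lower at 7 of 31 in 69CHAT, and at 6 and 7 in 82CHAT, with median log2 differences of 0.06 and 0.12. TGFB1, a growth factor gene with AP-1 sites, was 8.41-fold and 8.28-fold lower, with 655 to 1002 in WT and 94.6 to 111 in the lines. CDKN1A, the cell cycle inhibitor, was 3.83-fold and 4.41-fold lower, and SQSTM1, an autophagy receptor, 2.58-fold and 2.72-fold lower (largest limma adjusted p of these 1.9e-05). Of 16 measured genes for muscarinic receptors and the G proteins, phospholipases and calcium channels they use, 1 was higher and 3 lower in each line. CHRM2, a receptor for acetylcholine, read 59.8 to 74.9 in WT, 101 to 119 in 69CHAT and 102 to 137 in 82CHAT (1.60-fold and 1.70-fold higher, adjusted p = 0.0066 and 0.0035). ITPR3, a calcium channel of the endoplasmic reticulum, was 3.05-fold and 3.59-fold lower, and GNAQ, the G protein of the Gq type, 1.60-fold and 1.44-fold lower (largest adjusted p of these 0.0066). Of all genes 29.4% were called in 69CHAT and 30.3% in 82CHAT, which is the background for these counts. Between the lines 0 genes of any of these lists were called, beside 0.0% of all genes.

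Genes whose log2 levels over the 9 arrays were most like those of 4 members were found by Pearson correlation among 11954 other genes, as a description. For JUN they were PALLD (0.996), TMED9 (0.994) and NCAPG2 (0.988), and 199 genes were above 0.95. For IER3 they were ADAMTS1 (0.996), LRPAP1 (0.996) and ATP5IF1 (0.995), with 685 genes above 0.95. These values share the contrast of WT with the lines, which moved many genes. FOS was most like G0S2 (0.992), TNFRSF25 (0.985) and DNAI2 (0.984), with 75 genes above 0.95, and its arrays differ mainly by the replicate number. EGR1 had no gene above 0.95, the nearest being KCND1 (0.930), RRBP1 (0.926) and ALPP (0.917). On deviations from the group means the nearest genes were ACVR1, ID3 and TMED9 for JUN (0.987, 0.976 and 0.975), ZNF124, MUC3A and MAPK1IP1L for IER3 (0.992, 0.992 and 0.987), DYRK3, CAMP and RHAG for FOS (0.997, 0.996 and 0.995), and CDH1, TEX10 and KANK1 for EGR1 (0.960, 0.923 and 0.921). On that scale 278 genes were above 0.95 for FOS, 70 for IER3, 16 for JUN and 1 for EGR1. CDH1 (24.1 to 29.3) and KANK1 (40.3 to 47.6) were near background on all line arrays, and DNAI2 was so on all 9 arrays.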

How the data were processed

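The authors deposited 1 intensity per probe set and array, not in log form (14.9 to 21486, medians of the 9 arrays 134 to 143). Per the submitters' processing notes the authors made them with RMA, which corrects background, normalizes between arrays and summarises probe sets. Its version, and the step back from the log2 scale that RMA commonly gives, are not stated there. RMA can compress folds of dim genes. The table held 22283 probe sets, of which 68 controls were left out. The annotation gave 1 symbol to 19065 of the rest, several to 1043 and none to 2107.

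After a log2 step, limma 3.58.1 (R 4.3.3) fitted 3 group means to the 9 arrays with eBayes (two-sided). P-values were adjusted by Benjamini-Hochberg over 22215 probe sets, with a threshold of 0.05. Groups and replicate numbers came from the sample titles. The brightest probe set stands for a gene in lists. Named are all members, from each list at most 3 called genes per comparison with WT, by adjusted p, and the 3 genes most like FOS, EGR1, JUN and IER3. MAPK8 was named in addition, to complete the JNK kinases. Members and lists were chosen with earlier results of these data known. Deviations from group means correlated at 0.28 to 0.57 in the 9 pairs of same-numbered arrays, so replicate numbers were also fitted as a block. Between numbers 2 and 3 of different groups r was 0.21 to 0.48, and between 1 and the others -0.59 to -0.28, so the shared deviation mainly sets replicate 1 against 2 and 3. Alternatives covered scaling, a pseudocount of 16, filters, eBayes settings, array weights, fewer arrays and a stricter threshold of 0.01. As a check of the code, the fit was run on simulated data with independent noise. Those data lack the deviation that same-numbered arrays share.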

Additional observations from a re-analysis of the deposited data

How the results depend on the processing

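Of the 15 member probe sets 8 were called against WT in each line, and the count stayed at 7 to 10 apart from alternatives that by construction test fewer probe sets. Without dim probe sets the count was 6 in each. That filter drops the called JUN probe sets 201465_s_at and 201466_s_at, and uncalled members such as FOS and EGR1. With 1 probe set per gene the count was 4 in each, and with the suffixes _x_at and _s_at left out it was 1 in each (JUNB). Leaving out an array gave 8 to 9 in 69CHAT and 7 to 9 in 82CHAT. With the replicate block it was 8 in both, the block changed no call of a member probe set, and the counts over all probe sets were 8107 and 8486, against 5818 and 5948 without it. Those 2 counts became 2712 and 2780 without the suffixes, 3593 and 3708 with 1 probe set per gene, 9551 and 9506 with array weights, 3871 and 3813 at the threshold of 0.01, and 4466 to 6736 and 4687 to 6589 when an array was left out.

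Between the lines 0 probe sets were called, against 1704 with array weights (1 member), 454 in replicates 2 and 3 alone (0 members) and 0 to 36 when an array was left out (0 members). The 36 came without replicate 1 of 82CHAT and 8 without replicate 1 of 69CHAT. Probe sets that stood 0.5 or more apart on replicate 1 in all 3 groups numbered 84 higher and 362 lower. Median centring gave 28 and 535, and a limit of 1 gave 0 and 14.

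Signs of the brightest probe sets turned only for differences that were not called. Against WT these were FOS in 69CHAT (-0.016 with array weights, -0.054 to 0.26 when an array was left out), FOS in 82CHAT (-0.058 to 0.20) and IER2 in 82CHAT (-0.31 to 0.034). Between the lines array weights turned FOS (0.054), FOSB (0.059), JUN (0.24), JUNB (-0.033), EGR1 (0.018) and IER3 (0.0028), and replicates 2 and 3 alone turned FOSB (0.018), JUN (0.14) and IER3 (0.0019). Leaving out an array gave -0.21 to 0.14 for FOS, -0.14 to 0.14 for FOSB, -0.42 to 0.050 for JUN, -0.016 to 0.077 for JUNB, -0.14 to 0.048 for EGR1 and -0.15 to 0.080 for IER3. The cause was not tested. The dimmer EGR1 probe set, also not called, ranged over 17 alternatives from -0.058 to 0.099 in 69CHAT and from -0.13 to 0.029 in 82CHAT. The brighter EGR1 probe set passed with array weights in 69CHAT (-0.51, adjusted p = 0.015) and 82CHAT (-0.50, adjusted p = 0.023), and IER2 in 82CHAT (-0.32, adjusted p = 0.016).

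The fits were also applied to the lists, after the data had been seen. Calls among the 47 other early genes ranged from 15 to 27 in 69CHAT and 15 to 30 in 82CHAT, with more lower than higher in each fit. Dim values limit FOS, EGR3 and JUN 213281_at.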
